A study of Mus musculus with 113 samples.

Results

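The cytosolic ribosomal protein genes were examined in every mouse embryo RNA-seq library of the series. The members were all gene symbols of the deposited tables that read Rpl or Rps followed by a digit, together with Rplp0, Rplp1, Rplp2 and Rpsa, and without the ribosomal S6 kinases (Rps6k symbols), Rps19bp1 and symbols marked as pseudogenes. By this rule 86 of the 24006 listed genes were members. 46 encode proteins of the large subunit, 31 encode proteins of the small subunit, and 9 are paralogs of such genes (Rpl3l, Rpl7l1, Rpl10l, Rpl22l1, Rpl36al, Rpl39l, Rps4l, Rps27l and Rps27rt).

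Each cytosolic ribosome joins a small subunit, which reads the mRNA, to a large subunit, which forms the peptide bonds. The P stalk of the large subunit, made of Rplp0, Rplp1 and Rplp2, recruits the GTPases that drive translation. Mouse embryos start with ribosomes and mRNAs stored in the oocyte, degrade much of the maternal mRNA by the 2-cell stage, and make new ribosomes once their own genome is active. Most ribosomal protein mRNAs begin with a run of pyrimidines (the 5′ terminal oligopyrimidine or TOP motif), through which mTOR and the RNA-binding protein LARP1 control their translation and stability.

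The series asked what the nuclear receptor NR5A2, and the nuclear receptors RARG, NR1H3 and NR2C2, contribute to transcription at the 2-cell (2C), 4-cell (4C) and 8-cell (8C) stages. The embryos were labelled wild type and, by the study's methods, came from superovulated C57BL/6N females mated with PWK/PhJ males. 92 libraries in 22 groups were used here. 32 libraries were made from pools of embryos (16 groups of 2) and 60 came from the base editing experiments. The study describes the base editing libraries as single embryos, although its general methods give several embryos per library. The knockdown (KD) pools had received siRNAs: 5 μM of siRNA against each of all 4 receptors (4KD, at 4C and 8C), against 3 of the 4 (3KD, 4 groups at 8C) or against 1 (Nr5a2, Rarg, Nr1h3 or Nr2c2 KD at 8C), and 20 μM against Nr5a2 at 2C. Their negative controls (NC) had received 20 μM (4NR NC and 2C NC), 15 μM (3NR NC) or 5 μM (1NR NC) of a control siRNA. The base editing groups at 2C and at 8C had received 100 ng/μL of base editor mRNA alone (BE, 8 embryos), of an Nr5a2 sgRNA alone (sgRNA, 8 embryos) or of both (BE + sgRNA, 14 embryos), the last to place a stop codon in Nr5a2. An siRNA lowers an mRNA without removing it, and the level of an edited mRNA does not show whether it was edited.

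The files held FPKM, the fragments of a gene scaled to its transcript length and to the mapped fragments of the library. This sets genes of different length on 1 scale. How well the scaling holds for very short mRNAs was not tested. Read numbers were not given. From the spacing of the lowest values, the relative depth of the libraries spanned 0.363 to 1.52 times their median. Library FPKM totals ran from 83392 to 556462, and 5472 to 11921 genes reached 1 FPKM. Of the 86 members, 2 to 25 per library were listed at 0 (median 5).

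The column headers of 3 single embryos gave the 4-cell stage in place of the labelled one. In the library labelled 2C sgRNA replicate 8, the summed level of 7 markers of the 2C embryo (Zscan4c and others) was 13.4 FPKM, against 122.7 to 1357.2 in the other 7 libraries of its group, and that of 6 oocyte markers (Gdf9 and others) was 45.3 against 244.4 to 2794.0. Its 7 markers of the 8C embryo summed to 18.6 FPKM, also below the other 7 (52.2 to 234.6). In 8C BE + sgRNA replicates 13 and 14, the summed level of 7 markers of the 8C embryo was 35.7 and 178.7 FPKM, against a median of 443.6 over the other 13 libraries. The lowest of those 13 was 45.8 for replicate 13, which lay below them all, and 35.7 for replicate 14, which lay within their range. Their markers of the 2C embryo summed to 257.0 and 95.5 FPKM, within the range of the other 13 (0.87 to 367.4, median 15.4). The oocyte markers summed to 132.4 FPKM in replicate 13, within the range of the others (33.9 to 269.1). In replicate 14 they summed to 269.1 FPKM, above all the others (33.9 to 142.0). The headers also held either eBE or BE4, which split the single embryos into 2 sets. The sgRNA libraries carried neither word and were placed by their library numbers. Some counts and medians of the members are also given without these 3 embryos or within each set. All other values, levels of single genes among them, include these embryos unless stated.

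At 2C the members took a small share of the transcriptome, and at 4C and 8C a share several times larger. In the 2C NC pools the 86 genes held 3.03 and 4.39% of the FPKM sum, and in the 2C Nr5a2 KD pools 2.83 and 3.08%. In the 16 control embryos at 2C (BE or sgRNA alone) the lowest share was 0.903%, the median 2.29% and the highest 8.42%, and the highest was the library with the 4-cell header. The other 15 reached at most 3.91%. At 4C the shares were 8.39 and 10.2% in NC and 8.81 and 10.1% in 4KD pools. In the 16 control embryos at 8C the lowest share was 8.58%, the median 9.78% and the highest 15.7%. The 2C and 8C control embryos did not overlap in this share, with or without the library of the 4-cell header. FPKM are relative to each library, so these shares do not give an amount of RNA per embryo or per cell, which was not measured.

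**Figure D1:**
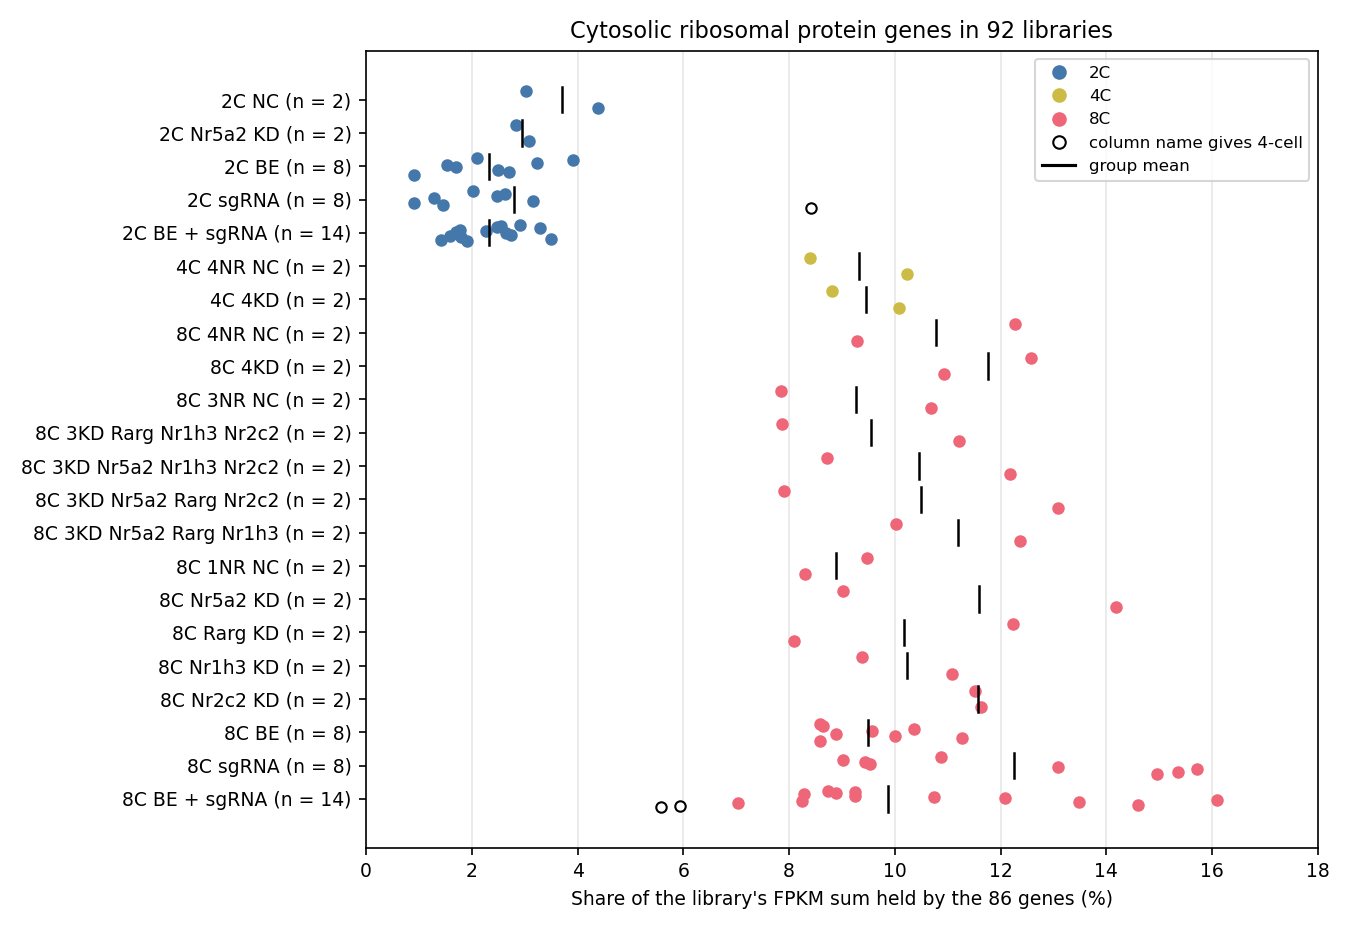
Share of each library's FPKM sum held by the 86 ribosomal protein genes (x axis, %), by group (y axis); each point is 1 library, coloured by stage, open points have a 4-cell column header, and black lines are group means. All 2C points but the open one lie at or below 4.39%, and the 8C control embryos lie between 8.58 and 15.7%.

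Among the 8C sgRNA embryos the share differed between the sets, and so did the FPKM total. In the 4 sgRNA embryos placed in the BE4 set the share was 13.1 to 15.7% and the FPKM total 207918 to 268257. In the 4 sgRNA embryos of the eBE set the share was 9.01 to 10.9% and the total 428014 to 466564. The BE embryos overlapped between the sets, with 8.58 to 10.4% in the BE4 set and 8.59 to 11.3% in the eBE set. The highest share of all libraries, 16.1%, came from 8C BE + sgRNA replicate 8, which also had the lowest FPKM total (83392), while in the 8C 4NR NC and 3NR NC pools the higher share went with the higher total. The part of the FPKM total in these shares was not tested.

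A few genes carried a large part of the members' signal. Rpl41, which encodes the smallest ribosomal protein, alone held 19.2% of the members' summed mean FPKM in the 8C control embryos and 24.8% at 2C. The top 5 members held 44.6% at 8C and 53.5% at 2C, and the top 20 held 83.8 and 85.4%. The number of members with a mean of at least 100 FPKM was 16 at 2C and 46 at 8C, and of at least 1000 FPKM 1 and 15. At the low end, 81 members reached a mean of 1 FPKM at 8C and 76 did at 2C.

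The comparison of 8C with 2C in control embryos asked how the members' mRNAs changed over the 2 cell divisions between these stages. Nearly all of them rose. Of the 82 members tested, 79 were higher at 8C, 2 were lower (Rpl3l and Rpl21) and 1 was not called (Rpl10l), by limma on log2(FPKM + 1) with a Benjamini-Hochberg adjusted p under 0.05 over all genes tested, 16 embryos against 16. Of all 12991 genes tested, 28.9% were called higher and 43.6% lower. The median member log2 fold change was 3.19, a 9.13-fold rise, with quartiles of 2.46 and 3.66, and the median of all genes was −0.31. Another scaling moved the all-gene median to −0.49 (median ratios) or −0.69 (FPKM sum), and the members' median stood above it by 3.50, 3.45 and 3.50 in the 3 scalings. Within the eBE set 78 members were called higher and 1 lower. Within the BE4 set 77 were called higher and 0 lower, with the BE embryos alone compared, 4 at each stage. As in the main fit, the spread was also estimated from BE + sgRNA embryos, here 8 at 2C and 6 at 8C. p-values throughout measure the spread between these libraries, and the labels do not say whether embryos or pools came from separate matings.

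**Figure D2:**
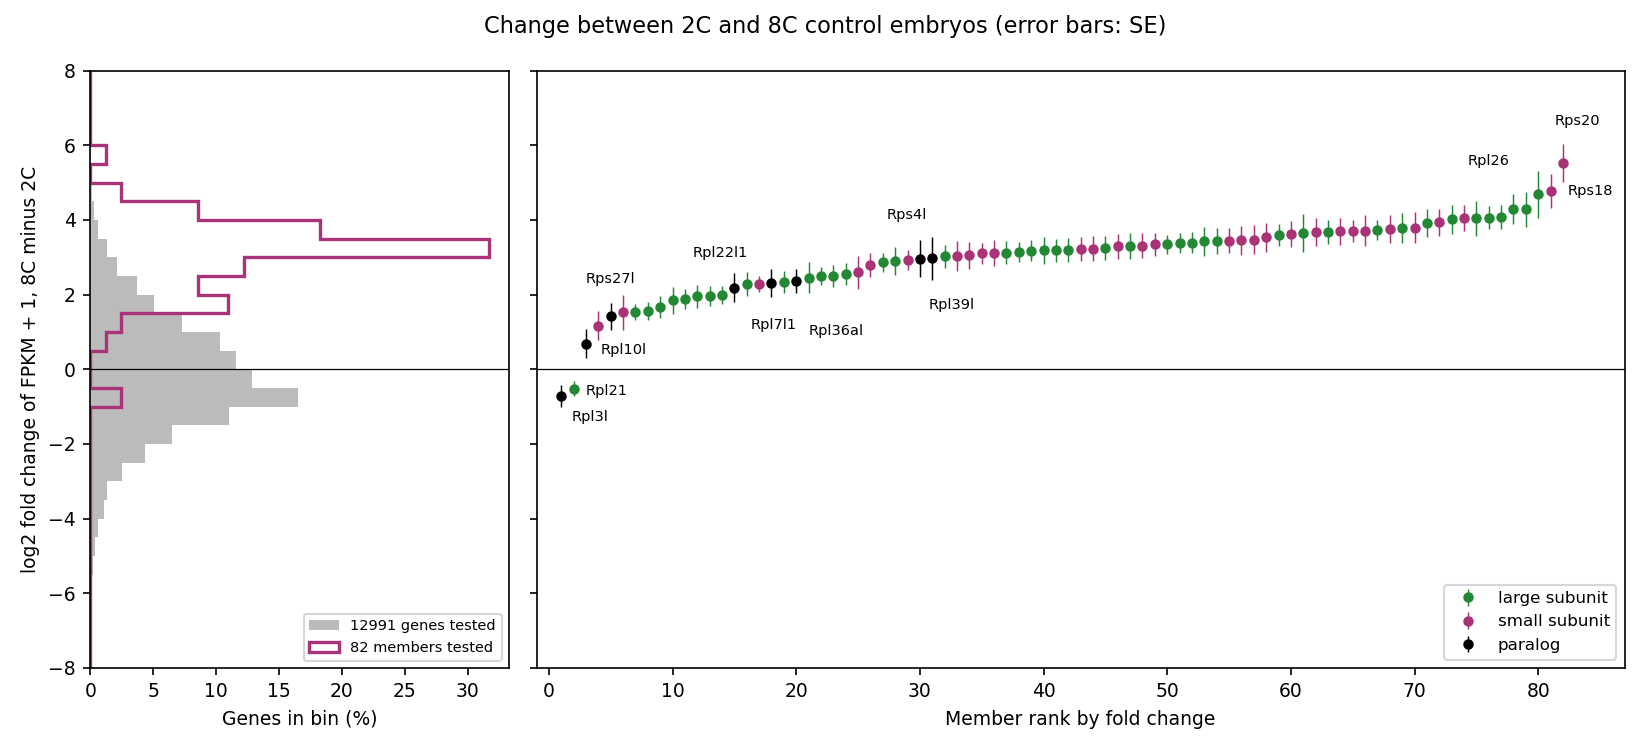
Left, share of genes in each bin of the log2 fold change of FPKM + 1 between 8C and 2C control embryos (16 and 16), for all 12991 genes tested (grey) and 82 members (purple line); right, each tested member by rank, with its SE. The members range from −0.72 to 5.53, with a median of 3.19 and quartiles of 2.46 and 3.66, and only Rpl3l and Rpl21 are below 0.

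The 4 members not tested (Rpl12, Rpl28, Rps12 and Rps27rt) had mean levels under 1 FPKM at both stages. In 32 members every 8C control embryo was above every 2C control embryo, as in 0.87% of all genes tested. Without the library of the 4-cell header this held for 47 members, against 1.59% of genes. That library gave the highest 2C value in 46 of the 83 members that any 2C control listed above 0. In 58 members no 2C control embryo was listed at 0, and of these 56 were called higher, with a median log2 fold change of 3.26.

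Of the 44 large subunit genes tested, 43 were called higher and 1 lower, and their log2 fold changes had a median of 3.18. Rpl41 had the highest level at 8C. It stood at 408.7 FPKM in the lowest, 1508.2 in the median and 4567.1 in the highest 2C embryo, and at 6427.1, 7010.1 and 10584.2 at 8C (log2 fold change 2.5, SE 0.24). Even the lowest 8C embryo exceeded the highest 2C embryo. Rpl32 went from 69.0, 149.3 and 906.8 FPKM (lowest, median and highest) to 1962.3, 2746.2 and 3825.9, again without overlap (4.06, SE 0.31). Rpl26 (chr11:68715085-68720491 in mm9), whose protein lies beside the exit tunnel, had the steepest change of this subunit (4.69, SE 0.63, limma adjusted p = 2.2e-09). At 2C it ranged from 0.00189 to 75.2 FPKM around a median of 0.00374, and at 8C from 27.7 to 169.4 around 74.4, so its lowest 8C embryos overlapped its highest 2C ones, as they did without the library of the 4-cell header (2C highest 45.3 FPKM, log2 fold change 5.04).

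Rpl5 and Rpl11, which with 5S rRNA form the particle that binds MDM2, were named for that role after their values were seen. Rpl5 rose from a median of 1.68 to 49.2 FPKM (3.73, SE 0.26) and had the lowest adjusted p of all members (limma, 4.4e-19). Its 2C embryos reached 23.9 FPKM, and 7.03 without the library of the 4-cell header, against 17.8 in the lowest 8C embryo. Rpl11 was listed at a median of 0 FPKM at 2C and of 4.95 at 8C, and 1.88 was its fitted log2 change. Rpl21 went the other way. It was at 0.995 (lowest), 2.69 (median) and 3.89 FPKM (highest) at 2C and at 0, 1.24 and 5.28 at 8C (−0.52, SE 0.21, limma adjusted p = 0.023), and the stages overlapped. It was not called lower within either set of embryos (adjusted p = 0.10 in the eBE and 0.31 in the BE4 set).

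All 30 small subunit genes tested were called higher, with a median log2 fold change of 3.39. Rps20 (chr4:3758481-3762812 in mm9), a protein of the head of the small subunit, changed most among all members (5.53, SE 0.51, limma adjusted p = 1e-14), a 46.3-fold rise. Its 2C controls stood at 1.33, 20.8 and 294.6 FPKM (lowest, median and highest) and its 8C controls at 805.0, 1099.3 and 1857.1. No 2C embryo reached the lowest 8C one. Rps18, also of the head, came next (4.77, SE 0.45, adjusted p = 2.3e-14), from a median of 5.73 to 138.7 FPKM.

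Rpsa, the 40S protein also known as the laminin receptor precursor, was at 0.794, 4.98 and 38.1 FPKM at 2C and at 26.7, 48.4 and 64.9 at 8C (2.93, SE 0.27, limma adjusted p = 1.9e-14). The stages overlapped between 26.7 and 38.1 FPKM through the library of the 4-cell header, and without it the highest 2C embryo was at 13.8 FPKM (3.10, SE 0.24). Rps6, the substrate of the ribosomal S6 kinases, and Rps27a, made as a fusion to ubiquitin, were named for these roles after their values were seen. Their medians went from 18.3 to 168.5 FPKM (3.10, SE 0.28) and from 5.44 to 77.2 FPKM (3.29, SE 0.34), and neither gene's stages overlapped.

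The P stalk genes differed in how much they changed. Rplp0, the stalk base, was at 25.6, 127.2 and 294.0 FPKM at 2C and at 264.3, 404.3 and 689.7 at 8C (1.95, SE 0.31, limma adjusted p = 1e-07). Its stages overlapped between 264.3 and 294.0 FPKM, and it was not called within the BE4 set (1.85). Rplp1 and Rplp2, named with it after their values were seen, rose by 3.17 (SE 0.28) and 3.65 (SE 0.51). The difference between the 3 changes was not tested.

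Of the 9 paralogs 8 were tested, of which 6 were called higher, 1 lower and 1 was not called, with a median log2 fold change of 2.24. The difference from the other members was not tested. At 2C several of them stood level with or above the gene they resemble, and by 8C the order had turned for some. Rpl10l, an autosomal retrocopy of the X-linked Rpl10 best known from male germ cells, was above Rpl10 in 16 of 16 control embryos at 2C and in 9 of 16 at 8C. Rpl10 stood at 2.56, 10.3 and 55.3 FPKM at 2C and 31.0, 91.2 and 153.6 at 8C (3.12, SE 0.30). Rpl10l stood at 17.9, 59.6 and 281.8 FPKM and at 22.6, 113.6 and 254.2 (0.68, SE 0.39, limma adjusted p = 0.11, not called). With the set of embryos as a term in the fit Rpl10l was called higher (0.92, SE 0.37, adjusted p = 0.023). The median log2 ratio of Rpl10l to Rpl10 was 2.86 at 2C and 0.26 at 8C. Both ratios are given as descriptions, and the difference between paralog and parent was not tested.

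Rpl3l, the paralog of striated muscle, was low at both stages. It was listed from 0 to 7.43 FPKM at 2C (median 1.5) and from 0 to 2.35 at 8C (median 0.376), while Rpl3 went from a median of 2.22 to 33.3 FPKM (3.20, SE 0.32). The fall of Rpl3l was small (−0.72, SE 0.30, limma adjusted p = 0.029). It was called in the eBE set (−1.29, adjusted p = 0.0024) and not in the BE4 set (−0.36, adjusted p = 0.64). Rpl3l was above Rpl3 in 4 of 16 embryos at 2C and in 0 of 16 at 8C.

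Rps27l, a paralog of Rps27 that p53 can induce, was the most abundant paralog. It stood at 168.5, 995.9 and 1890.2 FPKM at 2C and at 914.9, 2119.6 and 3706.2 at 8C (1.42, SE 0.36, limma adjusted p = 0.00047), and it exceeded Rps27 in 16 of 16 embryos at each stage. Rps27 itself was listed at a median of 4.40 and 10.8 FPKM. Rpl36al exceeded the X-linked Rpl36a in the same way, in 16 of 16 embryos at each stage, with medians of 224.7 and 1219.8 FPKM (2.36, SE 0.31) against 0 and 5.93.

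Rpl7l1 was above Rpl7 in 14 of 16 embryos at 2C and in 0 of 16 at 8C, and its median went from 12.8 to 85.4 FPKM while that of Rpl7 went from 10.3 to 275.7. Rps4l was above the X-linked Rps4x in 11 of 16 embryos at 2C and in 6 of 16 at 8C. For Rpl22l1 and Rpl22 the count went from 8 to 1 of 16. Rpl39l, a paralog of the exit tunnel protein gene Rpl39 that is abundant in testis, was above Rpl39 in 3 of 16 embryos at 2C and 0 of 16 at 8C. Its median level went from 63.2 to 456.3 FPKM (2.96, SE 0.49) and that of Rpl39 from 87.6 to 1564.8 (3.91, SE 0.38).

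**Figure D3:**
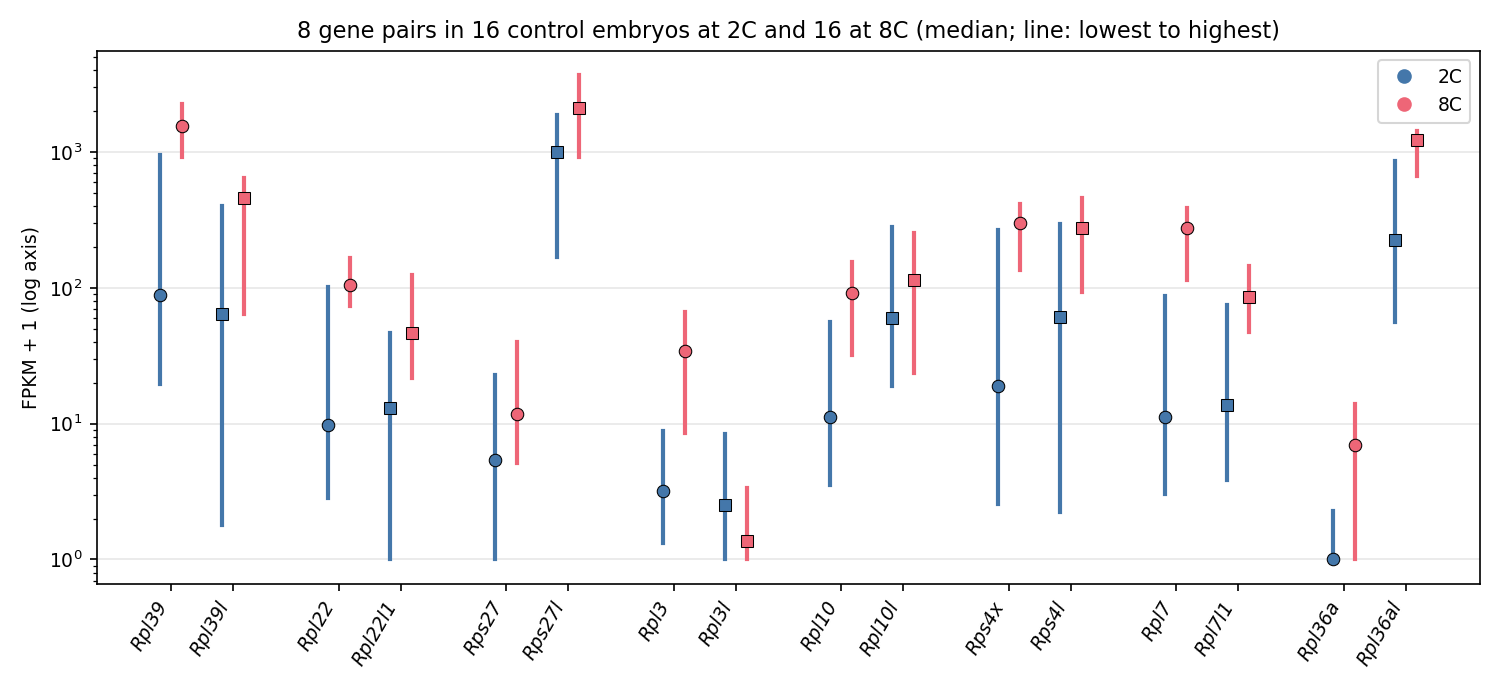
FPKM + 1 (log axis) of 8 ribosomal protein genes and their paralogs in 16 control embryos at 2C (blue) and 16 at 8C (red); circles are the genes and squares their paralogs, both at the median, and lines run from the lowest to the highest embryo. Rps27l and Rpl36al lie far above Rps27 and Rpl36a at both stages, while the median of Rpl7 goes from below to above that of Rpl7l1 by 8C.

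Ribosomal protein genes have many processed pseudogenes, and reads that match such copies may be lost or split between them, so a low listed level need not be a low mRNA. 84 members had a coding sequence in the GENCODE annotation of mm9 (NCBIM37), the build of the files. 77 of these had at least 1 intronless copy elsewhere in the genome of at least 95% identity over at least 90% of the coding sequence, and 56 had one of at least 99% identity. The most such near-identical copies, 7, belonged to Rpl21 (chr5:147644466-147648608). The mean level at 8C was lower in the 56 (median 60.5 FPKM) than in the 28 without (median 507.9 FPKM), and Spearman's rho between the number of near-identical copies and the mean 8C level was −0.546 across 84 genes. The correlation is a description across genes that share libraries. Levels of these 56 members are therefore uncertain, among them Rps27, Rpl36a, Rpl26, Rpl10, Rps20 and Rps18. Whether reads were lost to the copies was not tested.

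The 3 members with the lowest mean level at 8C were Rps27rt, Rps12 and Rpl12. Rps12 (chr10:23504990-23507015, 4 near-identical copies) and Rpl12 (chr2:32817079-32820016, 3 copies) were listed at 0 in 16 of 16 control embryos at 2C and in 15 of 16 at 8C. Rpl28, with 3 near-identical copies, was the other member under the level filter. Over the stages, 52 of 53 tested members with a near-identical copy were called higher (median log2 fold change 3.12) and so were 26 of 28 without one (median 3.27). 30 members hosted 58 small nucleolar RNA genes within their annotated span.

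**Figure D4:**
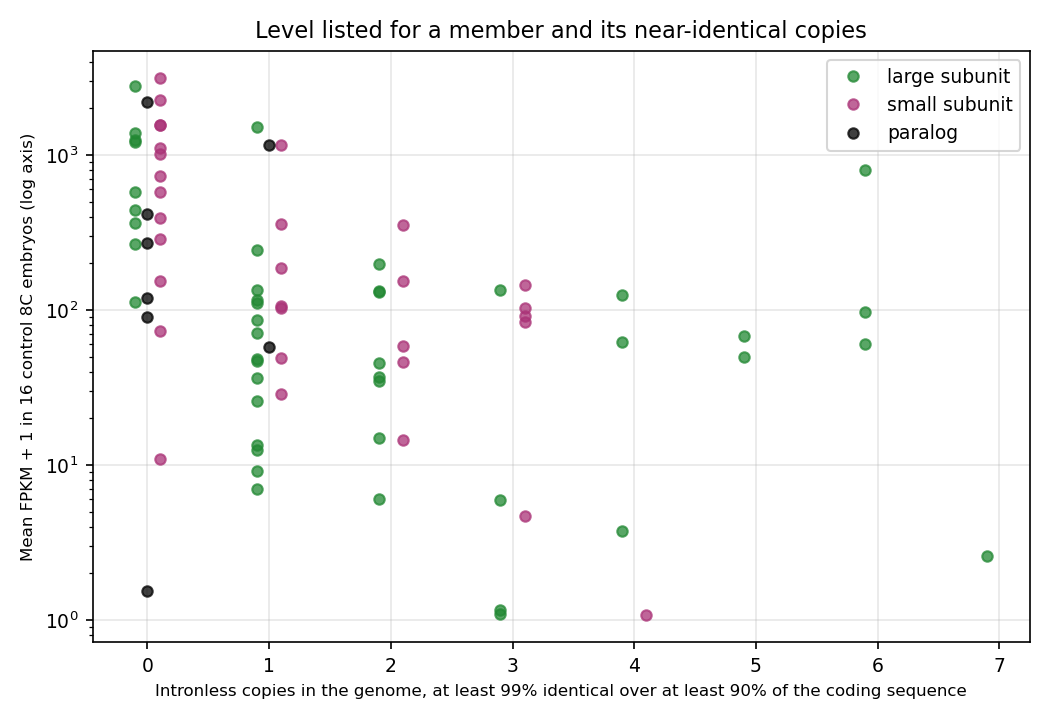
Mean FPKM + 1 in 16 control 8C embryos (log axis) of 84 members against the number of intronless genome copies at least 99% identical to their coding sequence, coloured by subunit. Members without such a copy have a median of 507.9 FPKM and those with one a median of 60.5 FPKM.

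Sequence at the members' starts was not used to choose them. RefSeq promoter sequences (GRCm38.p6, 250 bases before to 50 after the start) were given for 65 members and for 27025 genes in all. A TOP run, taken as a C followed by at least 4 pyrimidines that begins within 5 bases of the annotated start on the sense strand, was found in 30 of the 65 members (46.2%) and in 21.2% of all genes. The ETS family letters CCGGAAG, on either strand, were in 26 members (40.0%) and 9.93% of genes, and the YY1 letters AAGATGGC in 6 (9.23%) and 3.19%. The NR5A2 letters TCAAGGNCA were in 0 members and 1.86% of genes. The reverse complement of the ETS letters, CTTCCGG, opens with a run that meets the TOP rule, so both can match over shared bases, as they did in 1 member and 173 genes in all. A match is a description of letters in this window, and the absence of one says nothing of the factor.

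The 30 bases around the start are shown for 4 pairs of gene and paralog, to set their starts side by side, and for the member with the longest run (Rpl27a) and the one with the second steepest rise (Rps18). Positions are in GRCm38.p6, and for Rpl22 and Rps27l the first of 2 listed starts is shown. Capitals mark the TOP run, and a sequence without capitals has none by this rule.
Rps27 (chr3:90213634-90213663, minus strand): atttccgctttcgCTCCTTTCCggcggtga
Rps27l (chr9:66946071-66946100, plus strand): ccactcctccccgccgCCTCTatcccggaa
Rpl39 (chrX:37085208-37085237, minus strand): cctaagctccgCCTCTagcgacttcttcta
Rpl39l (chr16:10170213-10170242, plus strand): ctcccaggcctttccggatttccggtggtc
Rpl10 (chrX:74270801-74270830, plus strand): gttgttacagtggaagataggccgcctata
Rpl10l (chr12:66284387-66284416, minus strand): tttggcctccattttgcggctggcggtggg
Rpl22 (chr4:152324421-152324450, plus strand): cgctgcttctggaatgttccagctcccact
Rpl22l1 (chr3:28805493-28805522, plus strand): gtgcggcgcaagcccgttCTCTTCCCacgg
Rpl27a (chr7:109519180-109519209, plus strand): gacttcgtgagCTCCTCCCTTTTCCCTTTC
Rps18 (chr17:33955651-33955680, minus strand): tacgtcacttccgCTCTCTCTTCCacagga

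The run of Rpl27a was 20 bases long, of which the last lies past the window shown, and that of Rps18 11 bases. Rps27 and Rps27l both had a run, of 9 and 5 bases, Rpl39 had one (5 bases) and Rpl39l none, and neither Rpl10 nor Rpl10l had one. In the pair of Rpl22 it was the paralog that carried the run (8 bases).

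Genes around the ribosome moved in the same direction to different degrees. Of the ribosomal proteins that the naming rule misses, Fau (fused to Rps30; log2 fold change 2.85, SE 0.29) and Gnb2l1 (Rack1; 4.99, SE 0.38) also rose between 2C and 8C, with limma adjusted p of 3.1e-13 and 6e-18. Of 15 other mRNAs known to carry a TOP motif, 14 were higher and 1 was not called (Tpt1, 0.07), with a median of 2.31. The elongation factors Eef2 (3.68) and Eef1g (3.53) led this list.

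Of 60 genes of ribosome biogenesis, 48 were higher, 1 was lower (the kinase gene Riok1, −0.50) and 11 were not called, with a median of 1.22. The nucleolar protein genes Npm1 (3.22), Wdr43 (2.47) and Ncl (2.24) were among the higher ones. Of 77 mitochondrial ribosomal protein genes, 64 were higher, 1 lower and 12 not called (median 1.70). Genes that control ribosome production were mixed, with 6 of 14 higher, 5 lower and 3 not called. Myc (2.53), the S6 kinase gene Rps6kb2 (2.29), Larp1 (2.13) and Yy1 (1.41) were higher, while Mycn (−1.78), Mtor (−0.77), its partner Rptor (−1.11), the mTOR inhibitor gene Tsc1 (−1.30) and the other S6 kinase gene Rps6kb1 (−1.26) were lower.

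Markers of the stages and of other cells were tested beside the members. 7 of 7 markers of the 2C embryo were lower at 8C, and of 7 markers of the 8C embryo 5 were higher, 1 lower (Atp1b1) and 1 not called (Krt18). Oocyte mRNAs were still abundant at 2C, where their sum had medians of 1319.7 FPKM (BE) and 1347.2 FPKM (sgRNA), against 30.1 and 25.8 FPKM at 8C, and 5 of 6 were lower at 8C. Their part in the members' rise was not tested. Cumulus cell markers summed to at most 12.5 FPKM in these groups. Of the blood markers the globin gene Hba-a1 was the one that passed the filter, and it was lower at 8C (−3.65), while 2 of the 4 were at 0 in every BE and sgRNA control embryo. The oviduct marker Ovgp1 was lower too (−1.01).

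Between 4C and 8C the members' levels were closer. In the NC pools, 72 of 83 tested members had a positive log2 change from 4C to 8C, with a median of 0.39 against −0.01 for all genes, and in the 4KD pools 74 of 83 did (median 0.48 against −0.01). With 2 pools a group limma called 0 members and 0.0% of 10476 genes in either comparison, while 2 members (2.41%) had an unadjusted p under 0.05 in each, against 7.41 and 7.67% of all genes. Leaving out 1 pool moved the median to between 0.06 (without 8C NC replicate 1) and 0.73 (without 8C NC replicate 2) in NC, and to between 0.18 (without 4C 4KD replicate 1) and 0.71 (without 8C 4KD replicate 2) in 4KD. Rps2, a small subunit protein near the mRNA entry, was 1 of the 2 in each. It was at 278.9 and 316.7 FPKM in the 4C NC pools and at 437.2 and 574.8 in the 8C NC pools (0.75, SE 0.33, limma adjusted p = 0.67), so the pools did not overlap, though the gene was not called.

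**Figure D5:**
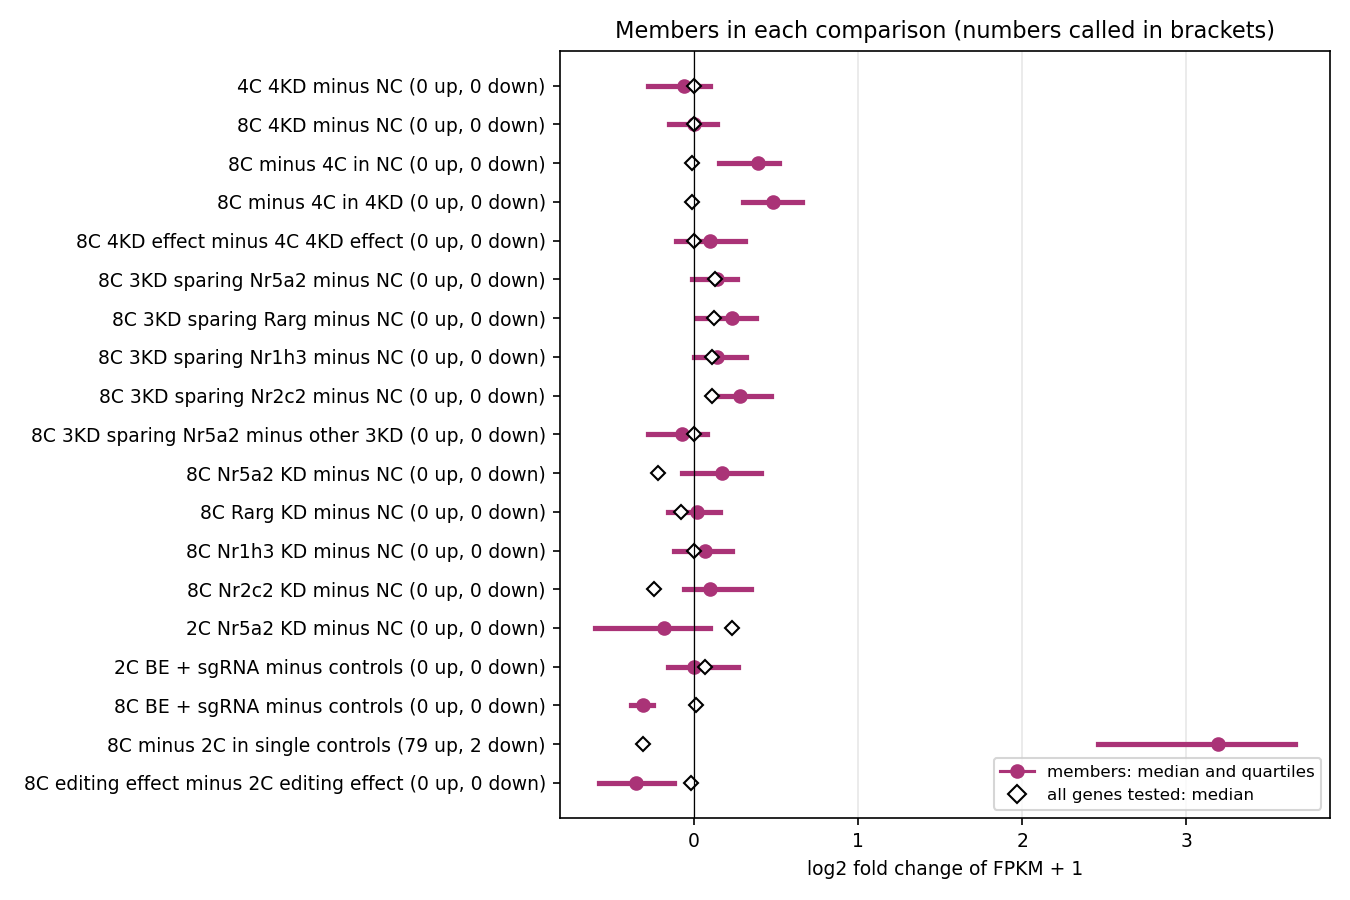
Median log2 fold change of FPKM + 1 over the members tested (purple point, line from the first to the third quartile) and over all genes tested (open diamond) in each of 19 comparisons, with the numbers of members called in brackets. Only the 8C against 2C comparison has members called (79 higher, 2 lower), and in the knockdown comparisons the member medians lie between −0.18 and 0.28.

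The knockdowns asked whether loss of the receptors moved the members. The target was lower in the knockdown pools. Nr5a2 stood at 26.8 and 31.7 FPKM in 4C NC and 3.98 and 17.6 in 4C 4KD pools, and at 27.1 and 30.3 in 8C NC and 3.90 and 6.91 in 8C 4KD pools, without overlap but not called (limma adjusted p = 0.81 and 0.38). For the members, the 4KD change had a median of −0.06 at 4C and 0.00 at 8C, and the median of all genes was 0.00 in both. limma called 0 of 83 members and 0.0% of 10476 genes at either stage, and 1 member (1.2%) at each stage had an unadjusted p under 0.05, against 5.82% of all genes at 4C and 7.48% at 8C. The difference of the 2 changes had a median of 0.10 over the members and limma called 0 of 83, with 0 members and 2.47% of all genes at an unadjusted p under 0.05 (0.0% of genes called).

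The uncalled members of lowest p were Rps28 at 4C and Rpl10l at 8C. Rps28, a small subunit gene with 3 near-identical copies, was listed at 4.57 and 6.37 FPKM in 4C NC pools and at 0 in both 4C 4KD pools. Rpl10l was at 104.3 and 131.4 FPKM in 8C NC and at 194.1 and 285.8 in 8C 4KD pools (1.00, SE 0.35, limma adjusted p = 0.49). It was also at 108.6 and 120.9 in 4C NC and 173.7 and 196.5 in 4C 4KD pools (0.68, SE 0.35, adjusted p = 0.91). At both stages the knockdown pools lay above the control pools, and neither difference was called.

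In the 3KD experiment each group spared 1 of the 4 receptors. Nr5a2 was at 31.8 and 45.2 FPKM where it was spared and 30.5 and 43.5 in NC, and between 3.96 and 9.42 FPKM in the 6 pools of the other 3KD groups. The member medians against NC were 0.14 (Nr5a2 spared), 0.23 (Rarg spared), 0.14 (Nr1h3 spared) and 0.28 (Nr2c2 spared), with all-gene medians of 0.13, 0.12, 0.11 and 0.11. These 4 comparisons share their 2 NC pools. limma called 0 of 83 members in each, at 0.0, 0.0565, 0.00941 and 0.0% of 10626 genes called, and 1, 2, 0 and 1 members had an unadjusted p under 0.05, against 2.36, 6.25, 6.95 and 7.37% of all genes. Leaving out 1 pool moved the medians to between −0.34 and 0.60, −0.31 and 0.70, −0.44 and 0.77, and −0.23 and 0.80. Without NC replicate 1 all 4 were negative (−0.34, −0.31, −0.34 and −0.23), and without NC replicate 2 all 4 were at least 0.60. These fits ignored the replicate numbers, which paired the pools of this experiment. Among the replicate 1 pools the members' share was 7.85% in NC and 7.87, 8.72, 7.91 and 10.0% in the 4 groups, in the order above. Among the replicate 2 pools it was 10.7% in NC and 11.2, 12.2, 13.1 and 12.4%. The differences in share were not tested.

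Set against the other 3KD groups, the pools with Nr5a2 spared differed in 0.282% of genes, Nr5a2 itself among them (2.5, SE 0.42, limma adjusted p = 0.036). limma called 0 of 83 members (0.254% of genes were called higher and 0.0282% lower), and 1 (1.2%) against 10.1% of all genes had an unadjusted p under 0.05. The member median was −0.07, and it ran from −0.53 to 0.38 as 1 pool was left out. That member was Rpl26. Its pools with Nr5a2 spared stood at 32.1 and 39.5 FPKM, below the 6 other 3KD pools (63.3 to 158.2) and the NC pools (103.7 and 170.4), with a log2 difference of −1.53 (SE 0.38, limma adjusted p = 0.13). With the replicate number as a block, which paired the pools of this experiment, Rpl26 was called lower (−1.53, SE 0.32, adjusted p = 0.028). The call was absent without the block whichever pool was left out (adjusted p = 0.19 to 0.75). It varied between experiments as well, at 39.7 and 72.9 FPKM in the 1NR NC pools and 14.2 and 106.0 in the Nr2c2 KD pools.

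Of the single knockdowns, that of Nr5a2 at 8C changed the most genes, and no member was among them. Nr5a2 was at 48.8 and 50.2 FPKM in 1NR NC and at 9.65 and 12.8 in Nr5a2 KD pools (−2.06, SE 0.35, limma adjusted p = 0.012). Of 10163 genes tested, 2.75% were called, 36 higher (0.354%) and 243 lower (2.39%). limma called 0 of 83 members, and 3 (3.61%) against 18.1% of all genes had an unadjusted p under 0.05. The member median was 0.17 and the all-gene median −0.22, and 55 of the 83 members were positive. Beside this, 2 of the 7 markers of the 8C embryo were lower, and the share of the FPKM sum in the members was 9.02 and 14.2% in KD against 8.30 and 9.47% in NC pools, whose ranges overlapped. Rpl41 stood at 2349.1 and 9945.8 FPKM in KD and at 5489.2 and 6106.4 in NC pools. Without Rpl41 the share was 8.52 and 11.7% in KD and 6.92 and 8.37% in NC pools, which did not overlap. The difference in share was not tested. In Nr2c2 KD pools too the share lay above these NC pools, with and without Rpl41. Without 1NR NC replicate 2 the member median of Nr5a2 KD was −0.07, and without replicate 1 it was 0.41.

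The member of lowest p was Rps27l. It was at 2222.8 and 3020.7 FPKM in NC and at 4442.4 and 4667.6 in Nr5a2 KD pools (0.81, SE 0.27, limma adjusted p = 0.13). The KD pools lay above the NC pools and above the pools of Rarg KD (2490.1 and 3170.3), Nr1h3 KD (2821.2 and 3486.5) and Nr2c2 KD (2882.9 and 3947.0), although the NC pools of the 4KD and 3KD experiments reached 4799.3 and 4581.0 FPKM. Rpl3l was next, at 0.508 and 0.712 FPKM in NC and 1.88 and 9.34 in Nr5a2 KD pools (1.76, SE 0.64, adjusted p = 0.17). Rplp0 was at 271.4 and 438.4 FPKM in NC and 341.4 and 445.8 in Nr5a2 KD pools, and Rpsa at 55.5 and 62.1 against 41.1 and 71.2, each overlapping.

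The other single knockdowns at 8C, which share the same NC pools, left member medians of 0.02 (Rarg), 0.07 (Nr1h3) and 0.10 (Nr2c2), with all-gene medians of −0.08, 0.00 and −0.24. limma called 0 of 83 members in each, beside 0.00984, 0.00984 and 0.0787% of genes, and 1, 2 and 1 members had an unadjusted p under 0.05, against 3.76, 2.92 and 4.19% of all genes. Without 1NR NC replicate 2 these medians were −0.25, −0.19 and −0.12. The members' share of the FPKM sum was 11.5 and 11.6% in Nr2c2 KD pools, above both NC pools (8.30 and 9.47%). Without Rpl41 it was 8.75 and 9.61%, again above both NC pools (6.92 and 8.37%). The shares in Rarg KD (8.10 and 12.2%) and Nr1h3 KD pools (9.39 and 11.1%) overlapped those in NC, as they did without Rpl41. These differences in share were not tested. Rps29 had the lowest p in Rarg KD, at 144.4 and 223.4 FPKM against 70.4 and 88.9 in NC (1.17, SE 0.36, adjusted p = 1), and in Nr1h3 KD, at 135.7 and 142.6 (0.81, SE 0.36, adjusted p = 1). Rps28 had it in Nr2c2 KD, at 4.44 and 5.05 FPKM against 0 and 3.84 in NC.

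At 2C, Nr5a2 was at 19.4 and 24.3 FPKM in NC and at 2.72 and 6.13 in Nr5a2 KD pools (−2.14, SE 0.49, limma adjusted p = 0.89). limma called 0 of 78 members and 0.0167% of 11958 genes (0.00836% in each direction), and 7 members (8.97%) against 4.67% of all genes had an unadjusted p under 0.05. The member median was −0.18 against 0.23 for all genes, and 54 of 78 members were negative. Without NC replicate 1 the member median was −0.43, and without NC replicate 2 −0.03. Rpl22l1 was at 18.5 and 35.3 FPKM in NC and 5.58 and 9.32 in KD pools (−1.69, SE 0.49, adjusted p = 0.89), and Rpl13a at 87.3 and 126.5 against 38.1 and 57.3 (−1.15, SE 0.41, adjusted p = 0.89). In both genes the KD pools lay below the NC pools and neither was called.

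The edited embryos asked the same question of single embryos. At 2C the member median was 0.00 against 0.07 for all genes, and limma called 0 of 78 members and 0.00805% of 12420 genes, with 2 members (2.56%) and 11.6% of all genes at an unadjusted p under 0.05. Without sgRNA replicate 8, the control with the 4-cell header, the member median was 0.18 (0.02 for all genes), and it was 0.01 within the eBE set (0.13) and 0.29 within the BE4 set (−0.08), with 0 members called in each. The BE4 set held no sgRNA embryo at 2C, so BE alone was its control. At 8C the level of Nr5a2 mRNA in BE + sgRNA embryos was 28.8, 47.9 and 108.0 FPKM (lowest, median and highest), against 33.1, 47.5 and 77.6 in BE and 7.98, 41.8 and 81.3 in sgRNA embryos (limma adjusted p = 0.83). Here 80 of 82 members had a negative log2 difference, with a median of −0.31 against 0.01 for all genes. None of the 82 was called by limma, 0.164% of 9760 genes were, and 7 members (8.54%) against 10.8% of all genes had an unadjusted p under 0.05.

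The size of this difference at 8C depended on which libraries entered. Without the 2 embryos of 4-cell header the member median was −0.22 (−0.05 for all genes), and without BE + sgRNA replicate 8, the library of lowest FPKM total, it was −0.19 (0.14 for all genes). It was −0.08 within the eBE set (0.05 for all genes), with 59 of 83 members negative, and −0.34 within the BE4 set (−0.14 for all genes), with 75 of 82 negative. In each of these fits 0 members were called. Of 5 oocyte markers tested 1 was higher in the BE + sgRNA embryos, and its part in the difference was not tested. Rpl13a, a large subunit protein, had the lowest p. It stood at 131.6, 435.6 and 631.5 FPKM (lowest, median and highest) in BE + sgRNA, at 379.2, 511.7 and 892.0 in BE and at 353.1, 522.7 and 927.2 in sgRNA embryos (−0.67, SE 0.24, limma adjusted p = 0.30). Rps20 came next, at 217.6, 881.0 and 1527.2 FPKM against 805.0, 988.3 and 1692.1 in BE and 811.8, 1200.6 and 1857.1 in sgRNA embryos (−0.60, SE 0.25, adjusted p = 0.36). The groups overlapped in both genes.

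The difference between the editing changes at 8C and 2C had a member median of −0.35 against −0.02 for all genes, with 70 of 82 members negative. limma called 0 members and 0.0385% of 12991 genes, and 2 members (2.44%) against 9.68% of all genes had an unadjusted p under 0.05. Without the 3 embryos of 4-cell header this median was −0.40, within the eBE set −0.08 and within the BE4 set −0.82 (−0.03, −0.06 and −0.20 for all genes), and without the library of lowest FPKM total of each stage it was −0.19 (0.09). The BE4 fit had BE alone as the control at both stages, and the other fits had the mean of BE and sgRNA. In the 16 perturbation comparisons, no member was called by limma as fitted without a replicate block, and none of the 4 pathway lists (mitochondrial ribosomal proteins, biogenesis, other TOP mRNAs and control genes) had a gene called.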

How the data were processed

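The deposited files held 1 FPKM value per gene and library. By the study's methods, the authors aligned reads of Smart-seq2 libraries to mm9 with TopHat and estimated FPKM with Cufflinks on the refFlat annotation. Groups came from the labels, and 92 of 113 listed samples had files used here. FPKM of 24006 genes were analysed as log2(FPKM + 1) with limma 3.58.1 in R 4.3.3 (trend on, Benjamini-Hochberg adjustment over all genes tested, called at an adjusted p under 0.05). A gene was tested where its mean reached 1 FPKM in at least 1 group compared. Members, gene lists and tests were chosen with earlier results of these data known. Named genes were Rplp0, Rpsa, the 8 paralog pairs, the 3 members of highest and of lowest 8C mean, up to 3 called members of largest change in each direction or, where none was called, the 2 of lowest p, with Nr5a2, Fau and Gnb2l1. Some genes that this rule names are not reported here. The fit was tested on simulated data. Copies were sought with blastn 2.17.0+ in mm9, with pandas 2.3.3 and numpy 2.4.6 for tables. Replicate numbers paired the 3KD pools, whose same-numbered deviations correlated at 0.278 to 0.513 in all 10 group pairs. Alternatives changed the pseudocount, level filter, scaling, block, embryo set and libraries entered.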

Additional observations from a re-analysis of the deposited data

Results flagged for a closer look

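In 134 groups of 8 single embryos (the members' share and named members by group), 11 had 1 library far from the other 7. The rule flags about 1 in 20 groups of normally distributed values. That rate does not hold for members listed at 0 in the other embryos, and the groups share libraries. The share of the FPKM total in the members was 8.42% in 2C sgRNA replicate 8, the library with the 4-cell header, and the next was 3.15%. Several others were members listed at 0 in the other 7 embryos, namely Rps28 at 3.31 FPKM in 2C BE replicate 3 and 3.59 in 2C sgRNA replicate 8, Rpl28 at 1.77 in 2C BE replicate 6, and Rpl36a at 1.25 in 2C BE replicate 3 and 1.27 in 2C sgRNA replicate 7. At 8C, Rpl3l stood high in BE replicate 1 (1.81 FPKM, next 0.508), where Rps4l stood low (148.0 FPKM, next 275.0). Rpl35a was low in BE replicate 4 (27.0 FPKM, next 64.0), Rpl36al in BE replicate 6 (883.0 FPKM, next 1170.0) and Rpl39l in sgRNA replicate 7 (63.0 FPKM, next 214.0).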

How the results depend on the processing

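The number of members called higher at 8C than at 2C in control embryos was 77 to 80 under other pseudocounts, filters, scalings, sets and libraries, and 68 under the limits of the study's methods (adjusted p under 0.01 and a log2 change of at least 2), where 8.24% of genes were called higher. The number called lower, 2, was 1 with a pseudocount of 0.1, without the lowest FPKM total and within the eBE set, and 0 with a mean of at least 5 FPKM, within the BE4 set and under the methods' limits. Rps27 was not called within the eBE set (1.09). With the replicate block, 1 member (Rpl26) was called lower in the 3KD pools with Nr5a2 spared against the other 3KD pools, and the block changed no other member's call. Numbers of the 4KD pools correlated negatively across stages (−0.297 to −0.271), and a crossed pairing, added after seeing the data, called 0 members. They did not pair the single KD pools (−0.0403 to 0.141) or the 2C pools (0.00429).

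Median-ratio scaling moved the member median to 0.46 in 8C Nr5a2 KD, 0.42 in 8C Nr2c2 KD and −0.41 in 2C Nr5a2 KD, and the all-gene medians to 0.01, 0.00 and 0.02, so the members' distance from all genes went from 0.39, 0.34 and −0.41 to 0.45, 0.42 and −0.43. Leaving out 1 pool gave member medians of −0.07 to 0.41 (Nr5a2 KD), −0.25 to 0.22 (Rarg KD), −0.19 to 0.28 (Nr1h3 KD) and −0.12 to 0.35 (Nr2c2 KD) at 8C and −0.43 to −0.03 in 2C Nr5a2 KD, with the lone remaining pool taken to vary like the other groups. Rpl28 in the 3KD group with Nr1h3 spared ranged from 0 to 2.49 and Rps28 in Rarg KD from −2.27 to 0 as 1 pool was left out. The cause of these changes was not tested. Read depth was not given, so a member listed at 0 cannot be told from one below detection, and 2 pools a group limit what could be called.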
